A study of Mus musculus with 6 samples.

Results

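The IkB family of NF-kB inhibitors was examined in RNA recovered with YTHDF2 from tumour regulatory T (Treg) cells. Its members here are 6 genes, Nfkbia, Nfkbib, Nfkbie, Nfkbid, Nfkbiz and Bcl3, taken by their Ensembl gene identifiers (IDs) from 54446 gene IDs listed in each library. All 6 were among the 15615 genes with enough reads to be tested. The study measured YTHDF2-bound RNA by RNA immunoprecipitation sequencing (RIP-seq), which compares the RNA that comes down with a protein with the total RNA of the lysate. The YTHDF2 immunoprecipitation (IP) group had 3 libraries, from lysate held for 4 hours on beads with an anti-YTHDF2 antibody and then washed 6 times. The Input group had 3 libraries, from the 10% of the lysate that was set aside beforehand and saw no antibody. Both groups came from genotype WT mice bearing subcutaneous B16F10 tumours, a transplanted mouse melanoma line, and from cells sorted as live, CD45+, CD4+ and positive for Foxp3-GFP, a fluorescent reporter of the Treg transcription factor Foxp3. Replicates were numbered 1 to 3 in each group, and the labels do not say whether they were separate animals or pools, so a p-value below speaks to the scatter of these particular libraries, some or all of which may be technical. Levels are averages over the sorted cells, so fewer cells with a transcript and less of it per cell cannot be told apart.

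NF-kB is a family of dimeric transcription factors that in resting cells is held in the cytoplasm by IkB proteins, which cover its nuclear localisation signals with their ankyrin repeats. Signals from the T cell receptor or from TNF receptors activate the IkB kinase, the IkB protein is phosphorylated and degraded, and NF-kB enters the nucleus, where IkB genes are among its targets, so that the inhibitor is made again. Nfkbia (IkB-alpha), Nfkbib (IkB-beta) and Nfkbie (IkB-epsilon) encode these cytoplasmic inhibitors. Nfkbid (IkB-NS), Nfkbiz (IkB-zeta) and Bcl3 encode the atypical, nuclear members, which bind the NF-kB subunits p50 and p52 on DNA and raise or lower transcription depending on the gene; IkB-NS is known to promote Foxp3 induction in mouse Treg development. YTHDF2 is a cytoplasmic reader of N6-methyladenosine (m6A) that recruits deadenylation machinery to the mRNAs it binds.

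The feedback of NF-kB can act at kB sites in the promoters of its target genes, so the family's promoters were searched for the kB decamer consensus on both strands. The RefSeq promoter table, in build GRCm38.p6, covers 250 bases before to 50 bases after a transcript start and held 5 of the 6 genes, in 7 windows. Nfkbiz has no entry. The consensus was present in 3 genes, Nfkbia, Nfkbid and Bcl3, against 6.55% of all genes in the table and 5.81% of all windows. The 3 matches are shown with 20 bases on either side, on the gene's own strand, with the matching decamer in capitals.
Nfkbia, chr12:55492647-55492696, minus strand: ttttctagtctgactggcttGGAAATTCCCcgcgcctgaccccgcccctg
Nfkbid, chr7:30422160-30422209, plus strand: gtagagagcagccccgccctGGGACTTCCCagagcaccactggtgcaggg
Bcl3, chr7:19822724-19822773, minus strand: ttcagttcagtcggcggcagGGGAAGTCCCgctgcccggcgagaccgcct
Counted from the transcript start, the match begins at position -29 in Nfkbia, at -226 from an internal start in Nfkbid and at 3 in Bcl3. The Bcl3 start used, at base 19822755, also lies inside the annotated gene, whose 5' end is at base 19822824. The Nfkbia and Bcl3 matches read as the consensus on the opposite strand, and the Bcl3 decamer is the reverse complement of the Nfkbid decamer. The looser pattern GGGNNNNNCC, of which every kB consensus is a case, was found in 4 of the 5 genes. By window it was present in 6 of the 7, but also in 50.8% of all windows. A match is a run of letters and not a measured binding site, and RIP-seq does not measure transcription from these promoters.

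The genes lie on 4 chromosomes of the mouse genome. In GRCm38.p6, which is the same assembly as mm10, the RefSeq table places Nfkbia at chr12:55489409-55492647, Nfkbie at chr17:45555700-45563169 and Nfkbiz at chr16:55811375-55838954. The other 3 are on chromosome 7, Bcl3 at chr7:19808462-19822824, Nfkbib at chr7:28758251-28766644 and Nfkbid at chr7:30421731-30428749. Nfkbib overlaps the gene Ccer2 by 715 bases and Bcl3 overlaps the gene Gm16174 by 2034 bases. The setting used for strand in counting is not given in the sources used here, so the counts of Nfkbib and Bcl3 may include or lose reads at these overlaps. Their values are uncertain to that extent.

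The IP libraries held 6847731 to 8465453 reads assigned to genes and the Input libraries 10029733 to 14704617. Gene IDs with at least 1 read numbered 14200 to 19991 in the IP, fewest in IP replicate 3, and 26250 to 33344 in the Input. The files list gene IDs without symbols, so the labelled cell type was not checked against Treg markers here and other NF-kB pathway genes were not examined. No precipitation with a control antibody was analysed here, so a gene called enriched is one more abundant in IP than in Input libraries.

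Counts were scaled to CPM, a gene's reads relative to the depth of its library, with TMM factors, which assume that most genes do not differ, and IP was compared with Input in edgeR's quasi-likelihood test, with a gene called at a Benjamini-Hochberg adjusted p under 0.05 over all 15615 genes. The 6 genes had values on both sides of 0. Nfkbie, Nfkbid and Nfkbiz had no IP library at or below an Input library and were higher by 1.35- to 1.58-fold in the fit, whereas Nfkbia was lower in the IP on average, Bcl3 lower in 2 of 3 IP libraries, and Nfkbib spread across both groups. None of the 6 passed the test: 0 were called enriched, where 4.33% of all tested genes were, and 0 were called depleted, where 6.11% were. Among 2151 genes averaging 100 CPM or more, the level at which Nfkbia, Nfkbie, Nfkbid and Nfkbiz lie, 20.8% were called enriched and 18.9% depleted. At an unadjusted p under 0.05 the 4 abundant members passed, a threshold met by 24.0% of all tested genes and by 60.8% of those with at least 100 CPM. On the same counts DESeq2's Wald test called 1 member enriched and 0 depleted, where it called 6.63% and 10.0% of the 20847 genes it tested. limma voom called 2 enriched and 0 depleted, against 5.74% and 11.1% of all genes. With replicate number added as a block, edgeR called 2 enriched and 1 depleted, against 5.33% and 7.01% of all genes. The labels do not say that equal numbers share a lysate.

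Nfkbia (ENSMUSG00000021025.8) encodes IkB-alpha, the inhibitor that is degraded and made again fastest after NF-kB is activated. It had 253.6, 413.8 and 359.6 CPM in IP replicates 1, 2 and 3, against 409.5, 581.3 and 539.6 CPM in Input replicates 1, 2 and 3. Only IP replicate 2 lay within the range of the Input, just above Input replicate 1, so the groups overlapped by that single pair. Within each replicate number the IP library was the lower one, although the labels do not tie a number to one lysate. The means were 342.3 ± 81.4 CPM in the IP and 510.1 ± 89.6 CPM in the Input (SD, n = 3 each). On the log2 scale this was a fold change (IP over Input) of -0.58 ± 0.21 (SE), with a 95% interval of -1.05 to -0.10 and an adjusted p of 0.122 in edgeR's test, under 0.05 in 3 of 16 alternatives. Over all tested genes the median was -0.12 on the same scale, and 36.6% of them had a lower value than Nfkbia.

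Nfkbib (ENSMUSG00000030595.15) encodes IkB-beta, an inhibitor whose degradation and resynthesis are slower. It was one of the 2 members with few reads, with 220, 239 and 673 reads and 25.8, 34.7 and 79.9 CPM in IP replicates 1, 2 and 3. The Input libraries had 47.0, 71.1 and 35.4 CPM in the order of their replicate numbers. IP replicate 3 was the highest of all 6 libraries and IP replicates 1 and 2 the lowest, so the groups overlapped fully. The log2 fold change was -0.13 ± 0.46 (SE), with a 95% interval of -1.17 to 0.92 and an adjusted p of 0.923 in edgeR's test. An interval this wide leaves room for a change of close to 2-fold in either direction, which these libraries could not resolve.

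Nfkbie (ENSMUSG00000023947.8) encodes IkB-epsilon, a cytoplasmic inhibitor that acts mainly on dimers containing RelA and c-Rel. It had 247.4, 300.1 and 260.3 CPM in IP replicates 1, 2 and 3, against 137.8, 184.1 and 189.1 CPM in the Input replicates. Every IP library lay above every Input library, and the lowest IP value exceeded the highest Input value. The means were 269.3 ± 27.4 CPM in the IP and 170.4 ± 28.3 CPM in the Input (SD, n = 3 each). Its log2 fold change of 0.66 ± 0.18 (SE), a 1.58-fold higher level with a 95% interval of 0.25 to 1.07 on the log2 scale, was the highest of the family. The adjusted p of 0.0518 in edgeR's test missed the threshold narrowly, and it was under 0.05 in 9 of 16 alternatives. With library sizes from all reads, those not assigned to a gene included, the log2 fold change was 0.14 with an adjusted p of 0.727.

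Nfkbid (ENSMUSG00000036931.15) encodes IkB-NS, a nuclear protein that pairs with p50. It had 179.6, 221.1 and 261.5 CPM in IP replicates 1, 2 and 3, against 118.9, 155.1 and 156.4 CPM in the Input replicates. The IP libraries again lay wholly above the Input libraries. The means were 220.7 ± 40.9 CPM in the IP and 143.5 ± 21.3 CPM in the Input (SD, n = 3 each), a log2 fold change of 0.62 ± 0.21 (SE) with a 95% interval of 0.16 to 1.08. The adjusted p was 0.0881 in edgeR's test and was under 0.05 in 3 of 16 alternatives. With library sizes from all reads the log2 fold change was 0.10, with an adjusted p of 0.832.

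Nfkbiz (ENSMUSG00000035356.17) encodes IkB-zeta, a nuclear protein that is needed for a set of secondary NF-kB target genes in mouse myeloid cells. It had 423.1, 403.9 and 348.2 CPM in IP replicates 1, 2 and 3, against 247.7, 327.4 and 295.1 CPM in the Input replicates. The gap between the groups was narrow, from the lowest IP library at 348.2 CPM to the highest Input library at 327.4 CPM. The means were 391.7 ± 38.9 CPM in the IP and 290.1 ± 40.1 CPM in the Input (SD, n = 3 each). The log2 fold change was 0.43 ± 0.16 (SE), with a 95% interval of 0.07 to 0.80 and an adjusted p of 0.134 in edgeR's test. With library sizes from all reads it was -0.09 with an adjusted p of 0.794, so its direction rests on scaling by gene-assigned reads.

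Bcl3 (ENSMUSG00000053175.17) encodes a nuclear cofactor of p50 and p52 dimers, first known from a chromosomal translocation in human leukaemia. It had 291, 614 and 197 reads in IP replicates 1, 2 and 3, which gave 34.1, 89.1 and 23.4 CPM. The Input replicates had 59.1, 91.0 and 86.9 CPM. IP replicate 2 lay inside the range of the Input and IP replicates 1 and 3 lay below it. The log2 fold change was -0.69 ± 0.47 (SE), the lowest of the family, with a 95% interval of -1.75 to 0.36 and an adjusted p of 0.451 in edgeR's test. Without IP replicate 2 it was -1.49 with an adjusted p of 0.0480, so a call of depletion for Bcl3 depends on that library.

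**Figure D1:**
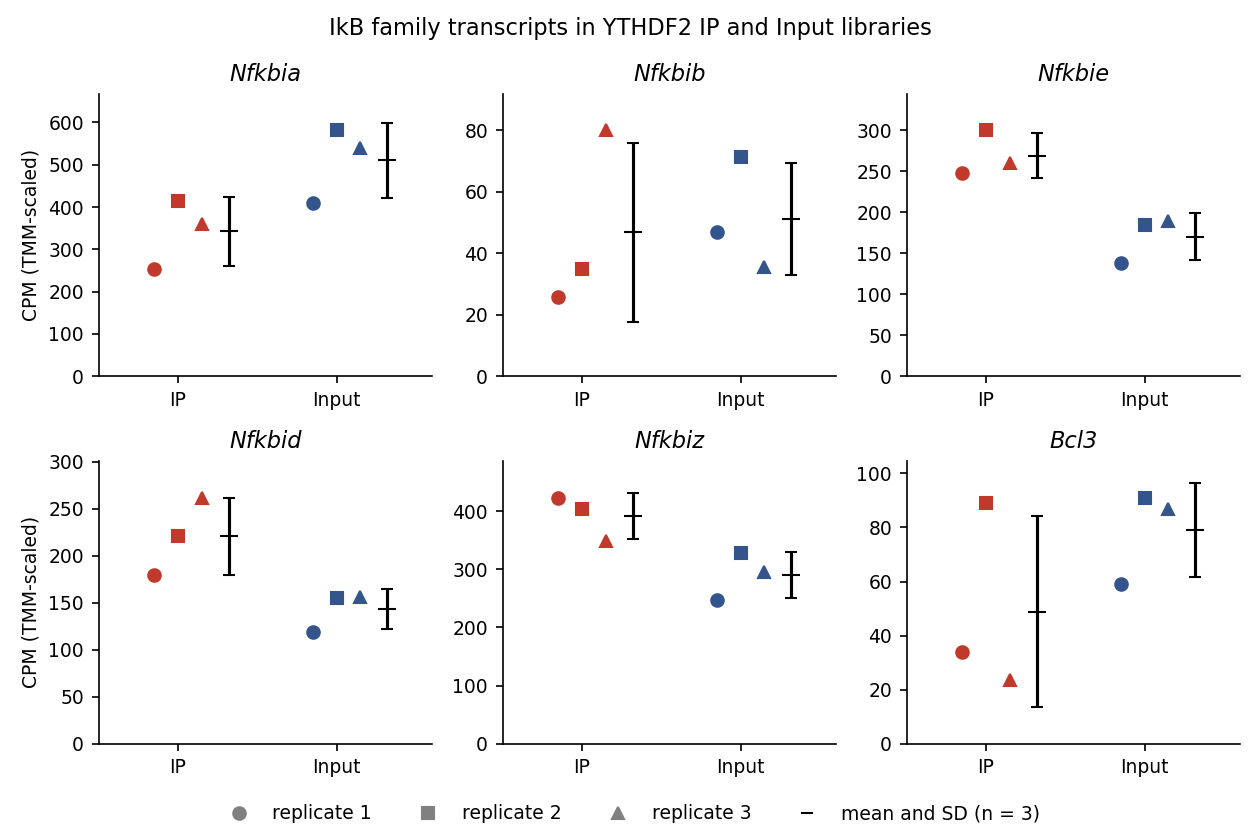
CPM of each gene (vertical axis, linear from 0, TMM-scaled) in the IP and Input libraries, with a point for each replicate and the mean ± SD of 3 libraries beside them. The IP points of Nfkbie, Nfkbid and Nfkbiz all lie above their Input points, and single IP libraries stand apart for Nfkbib (replicate 3, 79.9 CPM) and Bcl3 (replicate 2, 89.1 CPM).

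Separation of the groups was common in these libraries. Of the members, 3 of 6 lay wholly above the Input, as did 12.8% of all tested genes and 35.4% of those with at least 100 CPM, and 0 of 6 lay wholly below it, against 23.7% and 27.9%. In log2 fold change, the median over the 6 genes was 0.15, against -0.12 for all tested genes and 0.18 for the 2151 genes with at least 100 CPM. Nfkbie exceeded 75.4%, Nfkbid 74.4% and Nfkbiz 68.4% of all tested genes in log2 fold change. Bcl3 exceeded 33.5% and Nfkbib 49.7%. The range within the family thus covered about the middle of the distribution, and the plot of fold change against level shows the 4 abundant members close to the inner edge of the called genes.

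**Figure D2:**
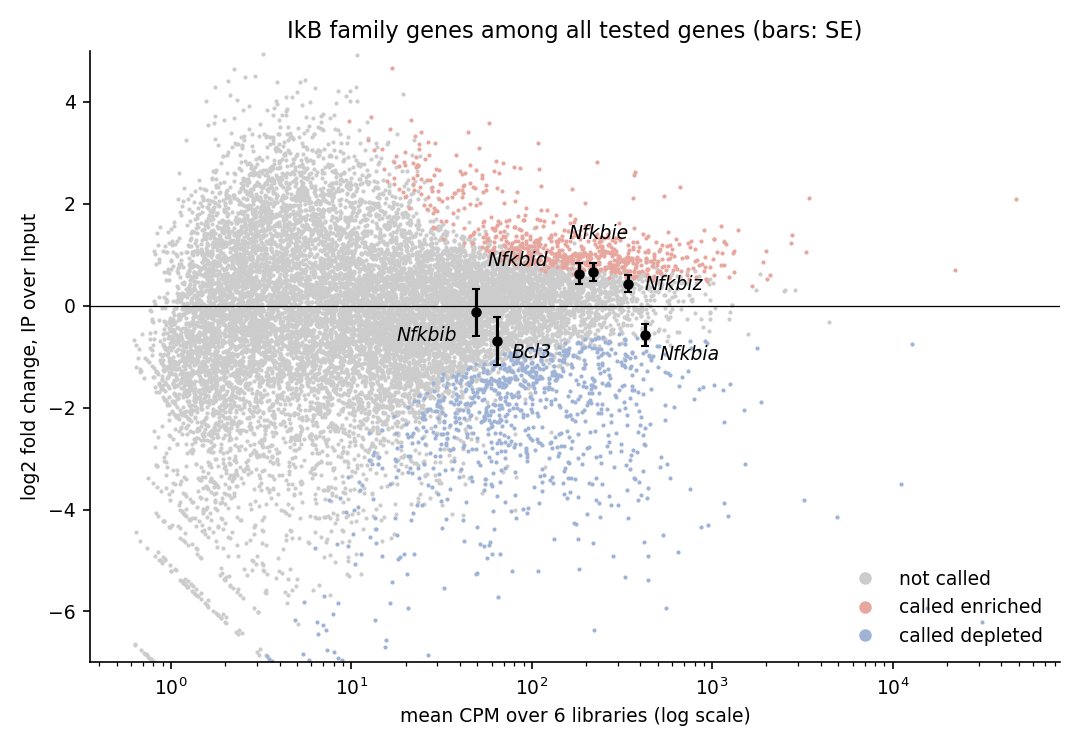
Log2 fold change of IP over Input (vertical axis) against mean CPM over the 6 libraries (horizontal axis, log scale) for all 15615 tested genes, of which 252 lie outside the drawn range of -7 to 5. The IkB family is in black with its SE, and its members run between -0.69 for Bcl3 and 0.66 for Nfkbie, among the genes that were not called.

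The spread between IP libraries separated the members by level. The coefficient of variation of the CPM in the IP was 9.93% for Nfkbiz, 10.2% for Nfkbie, 18.5% for Nfkbid and 23.8% for Nfkbia, and the median of the 1206 genes with 150 to 500 CPM was 18.9%. It was 62.1% for Nfkbib and 72.2% for Bcl3, where counting error alone would give 5.84% and 5.81%. These were also wide for their level: among the 1895 genes with 40 to 80 CPM the median was 34.4%, and 13.8% of them varied more than Nfkbib and 8.23% more than Bcl3. In the Input the coefficient was 35.6% for Nfkbib and 21.9% for Bcl3, against a median of 14.8% for genes of that level. The libraries that stood apart were not the same, IP replicate 3 for Nfkbib and IP replicate 2 for Bcl3. The libraries contain no molecular identifiers in these files, and the part of amplification in this spread was not tested.

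The IP and Input libraries differ in the share of reads not assigned to genes. The family was therefore also described without any scaling, by the share of each gene in the summed reads of the 6 genes within a library. These are shares of reads and not of molecules, since a longer transcript gives more reads, but the length of a gene cancels when IP is set against Input. Nfkbia took 21.8%, 28.3% and 27.0% of the family's reads in IP replicates 1, 2 and 3, against 40.1%, 41.2% and 41.4% in the Input replicates. It was the gene with the most family reads in every Input library, and in IP replicate 1 Nfkbiz exceeded it. The share of Nfkbia averaged 25.7% ± 3.43 in the IP and 40.9% ± 0.691 in the Input (SD, n = 3 each), 15.2 percentage points lower in the IP. A two-sided exact permutation test returned p = 0.1, the smallest that 3 against 3 libraries allow, and 0.15 after adjustment over the 6 genes.

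Nfkbie, Nfkbiz and Nfkbid took larger shares in the IP. The share of Nfkbie averaged 20.4% ± 0.870 in the IP and 13.7% ± 0.748 in the Input (SD, n = 3 each). Nfkbiz had 30.0% ± 5.53 in the IP and 23.4% ± 0.828 in the Input, a difference of 6.65 percentage points that was 3.48 without IP replicate 1, and Nfkbid 16.7% ± 2.51 and 11.6% ± 0.510 in the same order. For each of these the IP libraries lay wholly above the Input libraries, again with an exact p of 0.1 and an adjusted p of 0.15. How often shares separate in other sets of genes was not examined, so the separated shares, that of Nfkbia included, are not shown to be particular to the family. Ratios between genes averaging 40 CPM or more did not overlap in 54.5% of all pairs. Nfkbib took 3.53% ± 2.14 in the IP and 4.12% ± 1.24 in the Input, and Bcl3 3.59% ± 2.24 and 6.31% ± 0.455, with overlapping libraries and exact permutation p-values of 0.8 and 0.2. Each of the 6 shares had a larger SD between IP libraries than between Input libraries. Shares within a library sum to 100%, so a lower share of one gene raises the others.

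**Figure D3:**
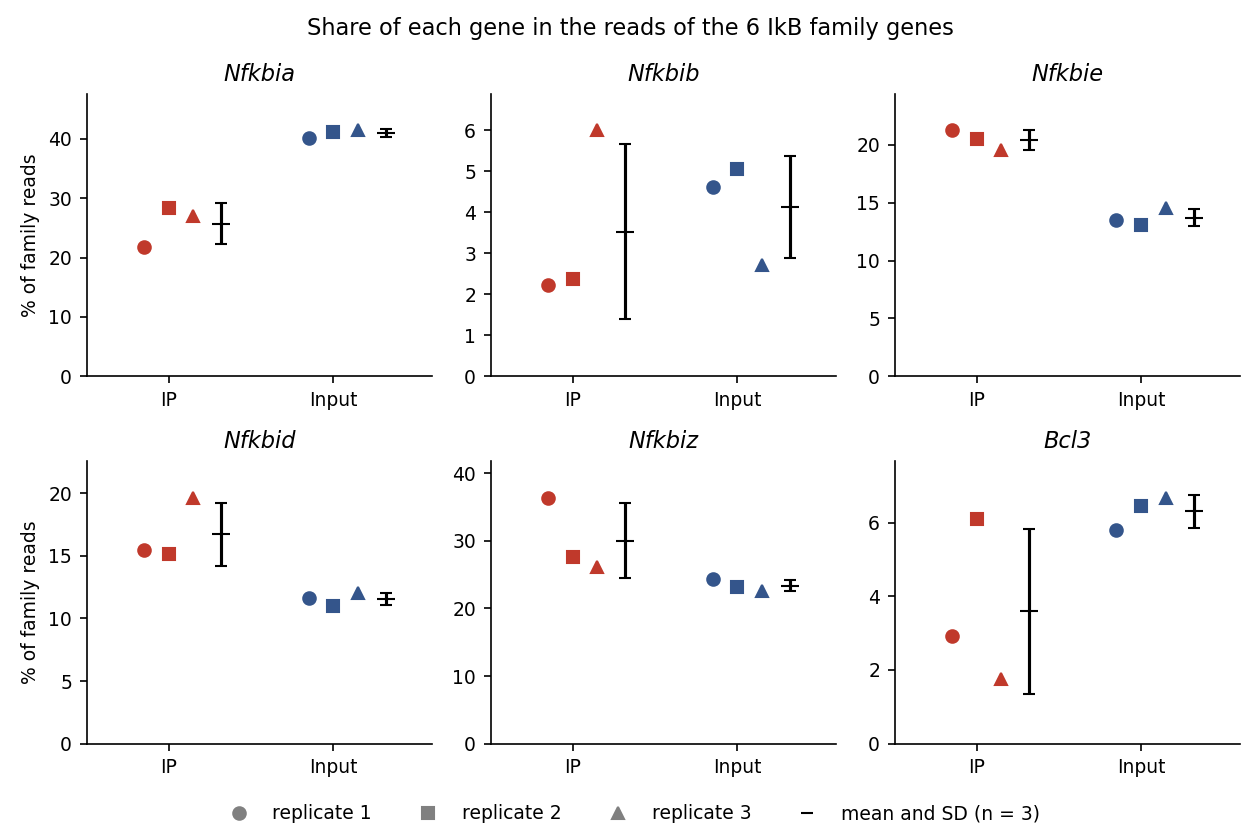
Share of each gene in the reads of the 6 IkB family genes (vertical axis, percent, linear from 0) in the IP and Input libraries, with a point for each replicate and the mean ± SD of 3 libraries. The share of Nfkbia is 21.8% to 28.3% in the IP and 40.1% to 41.4% in the Input, and those of Nfkbie, Nfkbid and Nfkbiz are higher in every IP library than in any Input library.

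The nuclear members Nfkbid, Nfkbiz and Bcl3 together took 54.7%, 48.8% and 47.5% of family reads in IP replicates 1, 2 and 3, against 41.7%, 40.7% and 41.3% in the Input replicates (exact permutation p = 0.1). No other sets of genes were compared for this summed share. Signs were mixed within both classes: the cytoplasmic inhibitors included both Nfkbia, with a lower share in the IP, and Nfkbie, with a higher one, and Bcl3 differed in sign from Nfkbid and Nfkbiz. The family as a whole made up 0.136% ± 0.0165 of gene-assigned reads in the IP and 0.118% ± 0.0194 in the Input (SD, n = 3 each), with an exact two-sided permutation p of 0.3.

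The same reads were also compared as ratios between members within a library, which, unlike the shares, separated Bcl3 as well as Nfkbia from Nfkbie, Nfkbid and Nfkbiz. For each of 15 pairs, the log2 ratio was compared between IP and Input libraries. There were 1.03, 1.38 and 1.38 Nfkbia reads for each Nfkbie read in IP replicates 1, 2 and 3, against 2.97, 3.16 and 2.85 in the Input replicates. The log2 ratio of these cytoplasmic inhibitors was lower in the IP by a difference of -1.26 ± 0.15 (SE), a 2.39-fold shift. For Nfkbia over Nfkbid the difference was -1.21 ± 0.15 (SE), and for Nfkbia over Nfkbiz -1.03 ± 0.26 (SE). The ratios of Nfkbie, Nfkbid and Nfkbiz to Bcl3 were higher in the IP by 1.57 ± 0.51, 1.52 ± 0.63 and 1.34 ± 0.54 (SE) on the log2 scale. These 6 pairs were the ones whose IP and Input libraries did not overlap, each with an exact p of 0.1 and an adjusted p of 0.25 over the 15 pairs. As a background, 54.5% of all pairs among genes averaging 40 CPM or more did not overlap either, so 6 of 15 is no more than such pairs usually gave. Without IP replicate 3, 10 of the 15 pairs did not overlap, as did 66.6% of the background pairs over the same 5 libraries.

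Among Nfkbie, Nfkbid and Nfkbiz, and between Nfkbia and Bcl3, the differences were small or unresolved. The log2 ratio of Nfkbie to Nfkbid differed between IP and Input by 0.05 ± 0.15 (SE), that of Nfkbie to Nfkbiz by 0.23 ± 0.13 (SE) and that of Nfkbid to Nfkbiz by 0.18 ± 0.24 (SE). The ratio of Nfkbia to Bcl3 differed by 0.32 ± 0.50 (SE). In order of log2 fold change, Nfkbie, Nfkbid and Nfkbiz were followed by Nfkbib, Nfkbia and Bcl3, and each overlapped its neighbour in that order within their SEs. For the widest step, from Nfkbiz to Nfkbib, the log2 ratio of Nfkbib to Nfkbiz differed between IP and Input by -0.68 ± 0.63 (SE).

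Among 828 other tested genes within 2-fold of the mean level of Nfkbia, the member with the highest CPM, the closest pattern over the 6 libraries was that of ENSMUSG00000036427.5. Its root mean square difference from Nfkbia was 0.08 in log2 CPM, each gene centred on its own mean, against a median of 0.62 for the 828 genes. It had a log2 fold change of -0.58 and an adjusted p of 0.0851 in edgeR's test. The next was ENSMUSG00000022876.18, at a difference of 0.09 and with a log2 fold change of -0.44. The tables used here do not pair these IDs with a symbol.

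The size of the values and the calls depended on the reads used for scaling. Reads assigned to no counted feature made up 71.2% to 72.1% of an IP library and 49.6% to 51.6% of an Input library. Such reads need not lie outside genes. When library sizes counted all reads, the median over the genes of the main setting moved by -0.53 on the log2 scale. Nfkbia was then called depleted, at -1.10 (edgeR's adjusted p 0.00783), in a setting that called 11.7% of its 16455 tested genes depleted and 0.942% enriched. With upper quartile factors, which moved the same median by 0.20, Nfkbie, Nfkbid and Nfkbiz were called enriched, at 0.86, 0.82 and 0.63 with adjusted p-values of 0.0162, 0.0348 and 0.0355, where 6.92% of all genes were called enriched and 5.13% depleted. The differences between members given as ratios do not change with these factors.

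**Figure D4:**
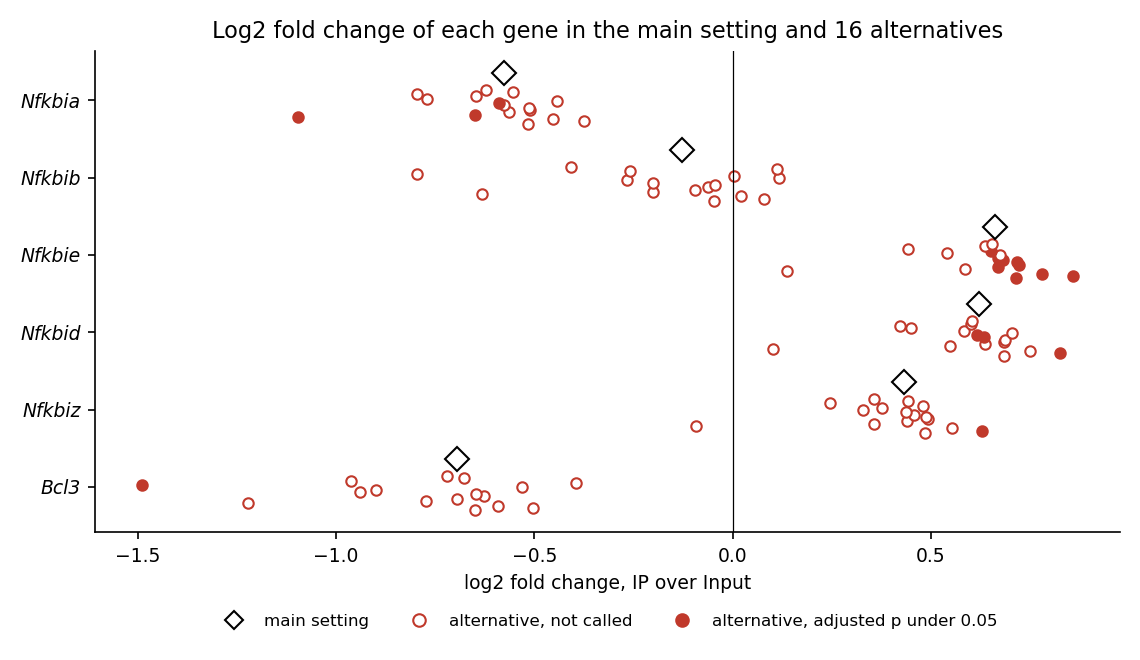
Log2 fold change of IP over Input (horizontal axis) for each gene in the main setting (diamond) and in 16 alternatives (circles, filled where the adjusted p was under 0.05). Nfkbie, Nfkbid, Nfkbia and Bcl3 stay on 1 side of 0 throughout, while Nfkbib crosses it in 5 alternatives and Nfkbiz in 1, that with library sizes from all reads.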

How the data were processed

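The authors deposited raw read counts per Ensembl gene ID, in a file for each library. Tools named in the submitters' processing notes are Trimmomatic 0.39, HISAT2 2.1.0, HTSeq and DESeq2, with build mm10; the sources used here do not state the annotation release, the strand setting or the treatment of duplicates. The 5 HTSeq categories of reads not assigned to a gene and 92 spike-in IDs were kept out of tests. Reads assigned to no counted feature were 71.2% to 72.1% of the IP and 49.6% to 51.6% of the Input.

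Counts were tested with edgeR 4.0.16 in R 4.3.3 (filterByExpr, TMM, robust quasi-likelihood F-test, no covariate, two-sided, Benjamini-Hochberg over all genes). Tested on simulated data for this comparison (13680 genes, 1 dispersion per gene for both groups), calls were made for 3 of 87 genes given a 2-fold difference and 22 of 82 given 4-fold, or 3 of 23 and 18 of 24 in the upper quartile of level, with 4 false calls. SEs of log2 fold changes come from F statistics, and SEs of pairwise ratios from the variances between libraries within each group. Shares and pairwise ratios (pseudocount 0.5 read) used exact two-sided permutation tests. Replicate libraries differed beyond sampling noise (chi-square per degree of freedom at least 16.1). Alternatives covered size factors, filters, DESeq2 1.42.0, limma voom (limma 3.58.1), a replicate block, a test against a 1.5-fold change and leaving out each library.

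All 6 members are named; of other genes, the rule named the 2 closest in pattern to the member with the highest CPM. Members and lists were chosen with earlier results of these data known. Pathway and marker lists were not tested, because no table used here pairs their symbols with Ensembl IDs.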

Additional observations from a re-analysis of the deposited data

How the results depend on the processing

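No member was called in the main setting. The number called enriched was 1 with DESeq2 size factors, with total counts, with 1 CPM in all libraries, with a mean count of at least 50 and in DESeq2's Wald test, 2 in limma voom and with a replicate block, 3 with upper quartile factors, and 0 to 1 without single libraries. Of the genes each tested, these settings called 5.16%, 6.01%, 11.5%, 8.46%, 6.63%, 5.74%, 5.33%, 6.92% and 1.09% to 5.25% enriched, in that order. The number tested differed, from 8961 with 1 CPM in all libraries to 20847 in DESeq2's Wald test, so these shares have unlike bases. The number called depleted was 1 with library sizes from all reads, without a filter and with a replicate block, and 0 to 1 without single libraries. The shares of the genes each tested were 11.7%, 3.29%, 7.01% and 3.26% to 8.73%. The test against a 1.5-fold change called 0 in either direction. Nfkbie was called at 0.72 with DESeq2 size factors, 0.86 with upper quartile factors, 0.78 with total counts, 0.67 with 1 CPM in all libraries, 0.72 with a mean count of at least 50, 0.72 in DESeq2, 0.68 in limma voom and 0.67 with a replicate block. Nfkbid was called at 0.82 with upper quartile factors, 0.63 in limma voom and 0.62 with a replicate block, and Nfkbiz at 0.63 with upper quartile factors. Nfkbia was called at -1.10 with library sizes from all reads, -0.65 without a filter and -0.59 with a replicate block. The sign turned for Nfkbib, to 0.080 (upper quartile factors) and 0.022 (total counts), and for Nfkbiz, to -0.092 with library sizes from all reads. For these shifts the cause was not tested.

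Leaving out 1 library gave log2 fold changes of -0.80 to -0.44 for Nfkbia, -0.79 to 0.12 for Nfkbib (above 0 without IP replicate 1 or 2 or Input replicate 2, at 0.12, 0.0027 and 0.11), 0.44 to 0.67 for Nfkbie (called without IP replicate 3, adjusted p 0.0479), 0.42 to 0.71 for Nfkbid, 0.24 to 0.48 for Nfkbiz and -1.49 to -0.40 for Bcl3 (called without IP replicate 2). The difference in share of family reads, IP minus Input, stayed between -16.5 and -13.3 percentage points for Nfkbia, and for Nfkbib ran from -1.83 to 0.0601, above 0 without IP replicate 1. That for Nfkbiz was 3.48 points without IP replicate 1, against 6.65 with it. Of the 15 pairs, 6 to 10 did not overlap, 10 without IP replicate 3. Libraries were not treated as pairs in the main setting, because the labels do not say that equal numbers share a lysate. Same-numbered libraries deviated together weakly (r of 0.0999, 0.0260 and 0.0242 across genes), and each IP library correlated best with its own number. Whether numbers mark pairs is therefore unsettled. With a replicate block, 2 members were called enriched and 1 depleted, against 5.33% and 7.01% of all genes. These results rest on 3 libraries a group. Nfkbib and Bcl3 had the fewest reads, as few as 197, and the widest spread between IP libraries. Their coefficients of variation in the IP were 62.1% and 72.2%, where counting error alone would give 5.84% and 5.81%.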
